A study of Homo sapiens with 18 samples.

Results

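MYC and the small set of proteins around it make up the network described here: 10 genes, MYC, MAX, MXD1, MXD3, MXD4, MXI1, MNT, MGA, MLX and MLXIP, out of 23399 genes with a value. They were chosen by name, for their place in the network, with earlier results of these data known, and all 10 passed the filter on low values. Their levels were measured by RNA-seq in U2OS-MycER cells, in 18 libraries that fall into 8 groups. U2OS is a human osteosarcoma line, and all cells used here were transduced with a retrovirus that encodes c-MycER, a fusion of Myc to the estrogen receptor, whose Myc part acts once 4-hydroxytamoxifen (OHT) is given. RAD21, which encodes part of the cohesin ring, was silenced with siRNA (siRAD21), or the siRNA targeted Renilla luciferase (siCtrl), and ethanol or 400 nM OHT was given at transfection (siCtrl OHT and siRAD21 OHT), and RNA was taken after 24 or 48 h. There were 3 libraries each of siCtrl and siCtrl OHT at 48 h and 2 of every other group. Cells without MycER were not analysed here, so every group carries the fusion. Reads on MYC can come from the endogenous gene or from the retroviral fusion, and the values do not separate the 2 sources.

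MYC is a transcription factor that binds DNA as a pair with MAX, mostly at the sequence CACGTG, called the E-box, and raises genes for growth, ribosome production and the cell cycle. MAX also pairs with the MXD proteins (MXD1, MXD3, MXD4 and MXI1), with MNT and with MGA, which bind the same sequence and recruit repressors, so that the partners compete for MAX. MLX and MLXIP (also called MondoA) form a parallel branch that senses glucose metabolites, and MLX can also pair with some MXD proteins and MNT. MXD genes are known to be raised when cells stop dividing or differentiate, while MYC is known to be high in growing cells and to hold down its own transcription.

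Values are eRPKM, the exonic reads per kilobase of exon, scaled to the depth of the library, which makes levels of different genes comparable. RAD21 was between 66.4 and 96.9 eRPKM in the 10 siCtrl and siCtrl OHT libraries and between 11.1 and 18.6 in the 8 libraries with siRAD21. VIM and SPARC, markers of mesenchymal cells, were at 105 to 129 and 60.6 to 86.4 eRPKM, while COL1A2 stayed at or below 0.109, and the leukocyte gene PTPRC was at most 0.322. The epithelial keratins KRT8 and KRT18 were also present, at 64.9 to 86.7 and 60.8 to 78.1 eRPKM. Depth was 9647501 to 12678599 reads per library. The 2 siRAD21 OHT libraries at 48 h differed by no more than the sampling noise of their reads (chi-square per gene 0.989, against 1.05 to 4.07 for the other pairs), so they count as 1 sample wherever a mean level is given here. The fits behind the fold changes, SEs and adjusted p-values treat them as 2 libraries, and averaging them first changed 1 call of a member, that of MNT at 24 h given below. The siRAD21 libraries at 24 h also came close to sampling noise, at 1.05. They are counted as 2 samples, though how separate they are is not known.

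Log2 fold changes below are differences of group means of log2(eRPKM + 0.5), given with their standard errors (SE) from a limma fit across all 14993 genes with a mean of at least 1 eRPKM. A gene was called, and is said to have risen or fallen, when its p adjusted with the Benjamini-Hochberg procedure was below 0.05 and its log2 fold change was past 0.5 in either direction. The comparisons at one time share their libraries, siCtrl above all, so they are not independent of each other. In bulk RNA, fewer cells that express a gene and less of its RNA per cell cannot be told apart.

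Promoters are shown for the 3 members whose RefSeq promoter holds the E-box that the network's proteins bind. RefSeq promoters on GRCh38.p14 were found for 9 of the 10 members, 14 promoters in all. MYC was the member not in the table. The motif CACGTG reads the same on both strands and was searched in the 250 bases before each start. It was in 3 of the 14 promoters, and in 2228 of 35116 promoters of all genes (6.34%). The runs below are the 250 bases before the start, on the strand of the gene, with the motif in capitals: MXD4 at chr4:2262110-2262359 on the minus strand, MNT at chr17:2401061-2401310 on the minus strand, and MLX at chr17:42566850-42567099 on the plus strand.
MXD4: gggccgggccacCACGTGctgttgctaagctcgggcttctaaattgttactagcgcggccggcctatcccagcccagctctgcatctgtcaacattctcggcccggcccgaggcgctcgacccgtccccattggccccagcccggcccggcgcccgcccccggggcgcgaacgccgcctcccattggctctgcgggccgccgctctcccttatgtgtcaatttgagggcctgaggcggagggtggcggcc
MNT: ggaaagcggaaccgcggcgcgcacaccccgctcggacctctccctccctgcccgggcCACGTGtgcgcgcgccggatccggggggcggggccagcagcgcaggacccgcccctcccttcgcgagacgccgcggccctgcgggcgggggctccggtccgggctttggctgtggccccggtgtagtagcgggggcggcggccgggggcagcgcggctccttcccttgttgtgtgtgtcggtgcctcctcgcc
MLX: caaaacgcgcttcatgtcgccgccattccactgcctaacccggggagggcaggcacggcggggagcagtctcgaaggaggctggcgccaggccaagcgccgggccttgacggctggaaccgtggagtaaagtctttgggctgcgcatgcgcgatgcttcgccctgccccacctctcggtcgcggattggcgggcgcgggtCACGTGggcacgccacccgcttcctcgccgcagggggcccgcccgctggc
The motif began 238 bases before the start of MXD4, 193 bases before that of MNT and 50 bases before that of MLX. These are matches of letters only. Of the 3 genes, MXD4 and MNT were among the members called in at least 1 comparison below, and MLX was in none. Among the members whose promoters lacked the motif, MXD1, MXD3 and MXI1 were also called. MAX, MGA and MLXIP, which lacked it too, were not. A link between the motif and the calls was not tested.

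MYC was the most abundant member in siCtrl cells. At 24 h its mean was 53.4 ± 2.52 eRPKM (SD, n = 2), followed by MAX at 33.4 ± 1.37 and MGA at 32.3 ± 1.44, whose libraries overlapped. MLX at 22.7 ± 2.08 and MXD3 at 22.5 ± 2.56 also overlapped. MXI1 was at 19.1 ± 0.209, MXD4 at 8.35 ± 0.478 and MLXIP at 7.46 ± 0.428, each below the one before in both libraries. MNT at 3.38 ± 0.192 and MXD1 at 1.68 ± 0.0205 were the least abundant, and MXD1 was covered by as few as 79 reads in a library. At 48 h in siCtrl cells (n = 3) MGA, at 29.9 ± 0.802, was above MAX, at 26.2 ± 0.718. MXI1 at 17.7 ± 0.368 and MXD3 at 17.2 ± 0.854 overlapped, as did MLXIP and MNT, and the other members kept their places. Under siRAD21 OHT at 48 h MXI1 came first, at 37.5 and 39.1 eRPKM, above MGA, whose values of 35.4 and 36.6 overlapped with those of MYC, as did those of MYC and MAX. Over the 18 libraries MXD4 had the widest range, with its highest value 7.97 times its lowest, and MGA the narrowest, at 1.26 times.

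Members called are given for each comparison, beside the share of all genes tested that was called. With OHT in siCtrl cells 1 member was called at 24 h, MXD4 (8.78% of all genes were), and 2 at 48 h, MXD3 and MXD4 (17.9% of all genes). All 3 calls were falls. With OHT in siRAD21 cells 2 fell at 24 h, MYC and MXD4 (11.9% of all genes called), and 3 at 48 h, MYC, MXD4 and MNT (28.6%). After siRAD21 alone MXD4 rose at 24 h (8.43%), and MXD4, MXI1 and MNT rose at 48 h (23.7%). Under OHT, siRAD21 against siCtrl called a rise of MXD4 at 24 h (6.47%) and of MXD4 and MXI1 at 48 h (16.2%). With both treatments against siCtrl, MXI1 and MNT rose and MYC fell at 24 h (13.1%), and MXD1 and MXI1 rose and MYC and MXD3 fell at 48 h (28%). The interaction, the effect of OHT in siRAD21 cells minus that in siCtrl cells, called no member at 24 h (0% of all genes) and 1 at 48 h, MXD4 (7.3%). From 24 to 48 h in siCtrl cells MXD4 and MNT rose (12.4%). The effect of siRAD21 at 48 h minus that at 24 h called MXI1, with a larger effect at 48 h, and MXD3, with a more negative one (10.7%), and the effect of OHT in siCtrl cells over the same times called MXD4 (1.77%). These shares were not tested against those of other genes. The network's median log2 fold change at 48 h was 0.11 with OHT in siCtrl cells and 0.08 after siRAD21, against -0.01 for all genes in both.

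MYC itself was lower with OHT in each of the 4 pairs of groups with and without it, and the difference was called in siRAD21 cells. At 24 h its level was 55.2 and 51.7 eRPKM in siCtrl and 41.0 and 41.2 in siCtrl OHT libraries. After siRAD21 it was 44.9 and 44.6, and with OHT in addition it was 29.4 and 30.6, the lowest of all groups. The 4 groups did not overlap at 24 h. OHT in siRAD21 cells lowered MYC by a log2 fold change of -0.57 (SE 0.069, adjusted p = 3.25e-05 in limma), which was called. In siCtrl cells the difference was -0.37 (SE 0.069, adjusted p = 0.00129), and for siRAD21 against siCtrl it was -0.25 (SE 0.069, adjusted p = 0.0146), both short of the fold threshold. Both treatments against siCtrl gave -0.82 (SE 0.069, adjusted p = 8.34e-07). The interaction was -0.19 at 24 h (adjusted p = 0.852). No gene passed the limma test for the interaction at 24 h, while 248 genes had an unadjusted p below 0.05 and a change past 0.5, and limma's voom on recovered reads called 19 genes.

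At 48 h MYC, counted over both sources of its reads, was not lower after siRAD21 alone. The authors report that RAD21 silencing left MycER levels unaffected, from a western blot of the protein. They also report that it lowered Myc mRNA, by quantitative RT-PCR, and Myc protein, more so at later times. The values here do not show the endogenous RNA alone, so they cannot be set directly against that result. MYC was 54.6, 49.9 and 52.3 eRPKM in siCtrl and 57.5 and 56.4 in siRAD21 libraries (log2 fold change 0.12, SE 0.063, adjusted p = 0.109). With OHT it was 49.4, 43.3 and 42.0 in siCtrl cells, just below the siCtrl range, and 36.0 and 32.9 in siRAD21 cells, far below the siRAD21 range. The log2 fold change with OHT was -0.22 (SE 0.057, adjusted p = 0.00464) in siCtrl cells and -0.72 (SE 0.069, adjusted p = 9.23e-07) in siRAD21 cells. The interaction at 48 h was -0.50 (SE 0.089, adjusted p = 0.00191), which lies just inside the fold threshold (-0.499938), so it was not called. It was called, at -0.50 to -0.56, without replicate 1 or 3 of siCtrl, replicate 2 or 3 of siCtrl OHT, replicate 2 of siRAD21 or replicate 1 of siRAD21 OHT. With all libraries it was called with a pseudocount of 0.1, centring or voom (-0.50 to -0.51) and with quantile normalization (-0.57). With a pseudocount of 1, other filters or a replicate block it was not. The effect of siRAD21 at 48 h minus that at 24 h was 0.38 (SE 0.094, adjusted p = 0.0106). Removal of duplicate reads limits high values, and MYC reached 32.7% of the limit in its highest library. With that step undone by calculation, an alternative chosen after seeing the data, the interaction was -0.58 and was called, as was siRAD21 OHT against siCtrl OHT at 24 h, at -0.51 in place of -0.45. ESR1, the human estrogen receptor gene, was at 0.233 to 0.950 eRPKM and was not tested. Whether reads from the receptor part of the fusion align to it is not known, so its level gives no measure of the fusion.

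MAX (chr14:65472892-65569413, GRCh37, minus strand), the shared partner, was higher with OHT at both times, by less than the fold threshold. At 48 h it was 26.2, 25.5 and 26.9 eRPKM in siCtrl and 34.9, 35.6 and 36.1 in siCtrl OHT libraries, with no overlap. In siRAD21 cells it was 25.6 and 26.0 without and 34.6 and 33.6 with OHT, so the siRAD21 libraries lay within the siCtrl range and the siRAD21 OHT libraries below the lowest siCtrl OHT library. The difference with OHT was 0.43 (SE 0.041, adjusted p = 1.12e-06) in siCtrl and 0.39 (SE 0.051, adjusted p = 1.47e-05) in siRAD21 cells, and 0.21 and 0.28 at 24 h, all below the fold threshold. MAX was called in no comparison. In the GENCODE annotation 822 of its 6257 exon bases are shared with FNTB on the other strand, and the counting did not use strand. The values correspond to an exon length of 3656 bases, so the overlap in the counted exons is not known.

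MXD4 (chr4:2249159-2263836, minus strand) was the member called most often, in 11 of the 15 comparisons. It encodes a MAX partner that represses. At 24 h it was 8.69 and 8.01 eRPKM in siCtrl, 4.20 and 4.81 in siCtrl OHT, 17.8 and 17.5 in siRAD21 and 6.99 and 7.44 in siRAD21 OHT libraries. At 48 h siCtrl libraries had 15.01, 14.0 and 14.6 eRPKM, and siCtrl OHT libraries had 4.21, 4.47 and 4.81. At the same time siRAD21 libraries had 30.8 and 33.5, and siRAD21 OHT libraries had 19.4 and 20.1. The 4 groups were fully apart at each time, with siRAD21 highest and siCtrl OHT lowest.

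With OHT, MXD4 fell in siCtrl cells by a log2 fold change of -0.82 (SE 0.076, adjusted p = 4.66e-06) at 24 h and -1.59 (SE 0.062, adjusted p = 4.18e-10) at 48 h. In siRAD21 cells it fell by -1.24 (SE 0.076) at 24 h and -0.69 (SE 0.076, adjusted p = 3.64e-06) at 48 h. After siRAD21 it rose by 1.04 (SE 0.076, adjusted p = 4.72e-07) at 24 h and 1.12 (SE 0.069, adjusted p = 1.21e-08) at 48 h. Under OHT the rise with siRAD21 was 0.63 at 24 h and 2.02 (SE 0.069, adjusted p = 1.17e-10) at 48 h, a 4.06-fold difference. The fall with OHT was smaller in siRAD21 than in siCtrl cells at 48 h, with an interaction of 0.91 (SE 0.098, adjusted p = 5.84e-05). At 24 h the interaction was -0.41 (adjusted p = 0.333). In siCtrl cells MXD4 rose from 24 to 48 h by 0.77 (adjusted p = 2.04e-06). The effect of OHT in siCtrl cells at 48 h minus that at 24 h was -0.77 (SE 0.098, adjusted p = 0.00138), so the fall was larger at 48 h. With both treatments against siCtrl the opposite directions left 0.43 (adjusted p = 9.52e-05) at 48 h and -0.20 (adjusted p = 0.0588) at 24 h, neither of which was called.

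MXD3 (chr5:176728462-176739758, minus strand), an MXD protein linked to S phase, fell with OHT in siCtrl cells at 48 h, its 1 call for OHT alone, and its difference for siRAD21 turned between the times. It was 24.3 and 20.7 eRPKM in siCtrl and 26.9 and 25.4 in siRAD21 libraries at 24 h, and 16.3, 17.3 and 18.02 against 12.1 and 12.8 at 48 h. The 3 siCtrl OHT libraries at 48 h had 9.47, 10.9 and 10.2 eRPKM and the siRAD21 OHT libraries 9.86 and 10.1, all below both groups without OHT. With OHT it fell in siCtrl cells at 48 h by a log2 fold change of -0.73 (SE 0.082, adjusted p = 4.80e-06), and with both treatments by -0.75. In siRAD21 cells OHT gave -0.32 (adjusted p = 0.0240) at 24 h and -0.31 (adjusted p = 0.0170) at 48 h, neither called. The effect of siRAD21 turned from 0.22 (adjusted p = 0.134) at 24 h to -0.45 (adjusted p = 0.000783) at 48 h, neither called, and the difference of these effects was -0.67 (SE 0.136, adjusted p = 0.00314), which was called. The interaction at 48 h was 0.43 (SE 0.129, adjusted p = 0.0368), short of the fold threshold. At 24 h OHT in siCtrl cells gave -0.45 (adjusted p = 0.00420), which was called without replicate 2 of siCtrl (-0.57) or of siCtrl OHT (-0.52), and siRAD21 under OHT gave 0.35 (adjusted p = 0.0234), called without replicate 1 of siRAD21 OHT (0.51). In the GENCODE annotation 2074 of 4743 exon bases of MXD3 are shared with PRELID1 or RAB24, so part of its reads may belong to those genes. The values correspond to an exon length of 3247 bases, so the overlap in the counted exons is not known.

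MXI1 (chr10:111967363-112047123, plus strand), which encodes a further MAX partner, was higher with either treatment. At 48 h it was 18.04, 17.3 and 17.7 eRPKM in siCtrl, 22.2, 23.4 and 24.6 in siCtrl OHT, 31.3 and 31.7 in siRAD21 and 37.5 and 39.1 in siRAD21 OHT libraries. The 4 groups did not overlap, and siRAD21 OHT was highest. It rose after siRAD21 at 48 h by 0.81 (SE 0.043, adjusted p = 2.84e-09) without and 0.70 (SE 0.043, adjusted p = 2.28e-08) with OHT. At 24 h the difference for siRAD21 was 0.27 (SE 0.048, adjusted p = 0.000804), and its growth to 48 h was called, at 0.54 (SE 0.064, adjusted p = 5.90e-05). OHT gave 0.39 (SE 0.039, adjusted p = 1.45e-06) in siCtrl and 0.28 (SE 0.048, adjusted p = 0.000177) in siRAD21 cells at 48 h, below the fold threshold, with an interaction of -0.11 (adjusted p = 0.224). Both treatments together gave 0.65 at 24 h and 1.09 (SE 0.043, adjusted p = 1.02e-10) at 48 h, both called.

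MXD1 (chr2:70124820-70170077, plus strand), the founding MXD gene, was low throughout, at 1.20 to 3.30 eRPKM. At 24 h it was 1.69 and 1.66 eRPKM in siCtrl and 1.20 and 1.22 in siRAD21 libraries (log2 fold change -0.35, adjusted p = 0.0365). At 48 h the siCtrl libraries had 2.00, 2.10 and 1.73 and the siRAD21 OHT libraries 2.86 and 3.30. That rise, 0.55 (SE 0.104, adjusted p = 0.000380), was its one call, and it was lost with a pseudocount of 1 (0.47) and without siCtrl replicate 3 (0.48) or siRAD21 OHT replicate 2 (0.46). The effect of siRAD21 at 48 h minus that at 24 h was 0.49 (SE 0.154, adjusted p = 0.0362), below the fold threshold, and was called without siCtrl 48 h replicate 1 (0.51) or 2 (0.54). Under OHT at 24 h siRAD21 gave -0.47 (adjusted p = 0.00869), which was called without siCtrl OHT replicate 2 (-0.54) or siRAD21 OHT replicate 1 (-0.55). In the GENCODE annotation 237 of 6351 exon bases of MXD1 are shared with SNRNP27. The values correspond to an exon length of 5840 bases, so the overlap in the counted exons is not known.

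**Figure D1:**
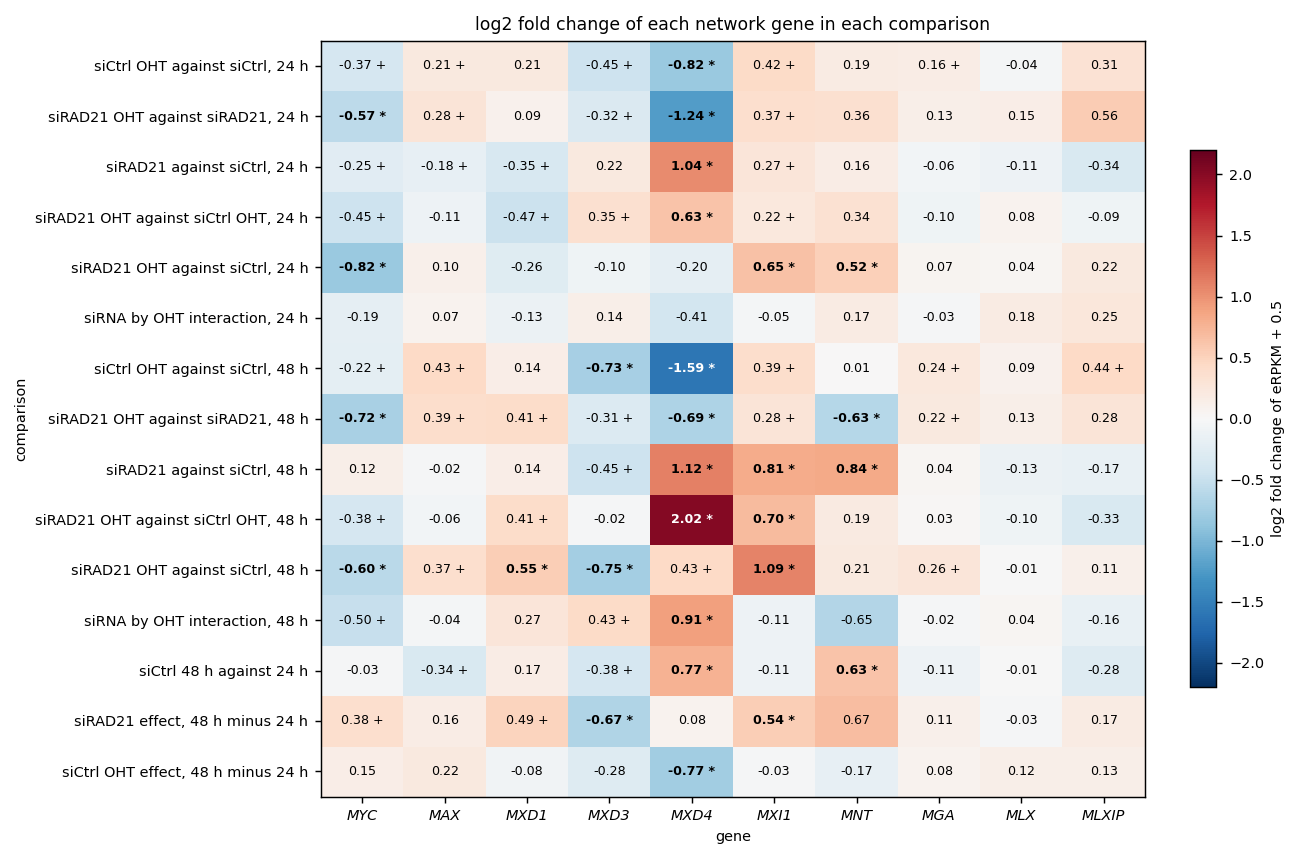
Log2 fold change of eRPKM + 0.5 for each gene (columns) in each of the 15 comparisons (rows), as a number and as colour, red for higher and blue for lower in the group named first. Bold values with an asterisk were called, and a plus sign marks an adjusted p below 0.05 without a call. The column of MXD4 holds 11 calls, and those of MAX, MGA, MLX and MLXIP hold none.

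MNT (chr17:2287367-2304398, minus strand), a MAX partner that antagonises MYC, rose after siRAD21 at 48 h. It was 10.6 and 9.94 eRPKM there, against 7.12, 4.50 and 5.19 in siCtrl libraries, without overlap (log2 fold change 0.84, SE 0.172, adjusted p = 0.000822). In siRAD21 cells it fell with OHT to 6.23 and 6.65 (-0.63, SE 0.188, adjusted p = 0.00994), a call lost without replicate 1 of either group (-0.59 in both cases). In siCtrl cells the OHT libraries had 7.26, 4.75 and 4.96, which overlapped with siCtrl (0.01, adjusted p = 0.952). The interaction of -0.65 (SE 0.243, adjusted p = 0.0838) was not called. Replicate 1 of siCtrl and of siCtrl OHT at 48 h stood apart for MNT and MLXIP. Without both, which was decided after seeing the data, MNT rose after siRAD21 by 1.01 and the interaction was called at -0.64 (adjusted p = 0.00985), while its rise in siCtrl cells from 24 to 48 h (0.63, adjusted p = 0.00855) dropped to 0.46 and was not called, and the effect of siRAD21 at 48 h minus that at 24 h was called at 0.85 in place of 0.67. Without siCtrl replicate 1 alone the interaction was -0.82, and without siCtrl 24 h replicate 1 the rise over time was 0.58 and was not called. At 24 h MNT was 3.25 and 3.52 eRPKM in siCtrl and 5.49 and 4.70 in siRAD21 OHT libraries (0.52, adjusted p = 0.0440), a call that ended when any 1 of these 4 libraries was left out (0.42 to 0.63). It also ended with a pseudocount of 1 (0.47), and with all genes above 0 or with the siRAD21 OHT 48 h libraries averaged, both at 0.52.

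MGA (chr15:41913332-42065279, plus strand), a very large protein that joins MAX to a Polycomb complex, varied little. At 48 h it was 29.9, 30.7 and 29.1 eRPKM in siCtrl, 31.0 and 30.8 in siRAD21, 35.1, 34.4 and 36.6 in siCtrl OHT and 36.6 and 35.4 in siRAD21 OHT libraries. Every library with OHT was above every library without it at 48 h, by a log2 fold change of 0.24 (SE 0.042, adjusted p = 0.000257) in siCtrl and 0.22 (SE 0.051, adjusted p = 0.00203) in siRAD21 cells. siRAD21 gave 0.04 (SE 0.046, adjusted p = 0.429) at 48 h and -0.06 (SE 0.051, adjusted p = 0.397) at 24 h.

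In the glucose-sensing branch, MLX (chr17:40719090-40725257, plus strand) was the steadiest member in the tests. In the GENCODE annotation 775 of its 4255 exon bases are shared with PSMC3IP on the other strand. MLX ranged from 19.3 to 25.1 eRPKM, its log2 fold changes between pairs of groups lay between -0.13 and 0.15, and its adjusted p was at least 0.116 in all 15 comparisons. MLXIP (chr12:122516628-122631894, plus strand), its partner, was 7.16 and 7.77 eRPKM in siCtrl, 9.47 and 9.28 in siCtrl OHT, 6.04 and 5.53 in siRAD21 and 8.89 and 8.63 in siRAD21 OHT libraries at 24 h. Both OHT groups were above both groups without OHT at that time. At 48 h siCtrl libraries had 7.67, 4.89 and 5.85 and siCtrl OHT libraries 11.5, 7.03 and 7.18, in the order of their replicate numbers, so the groups overlapped although OHT was higher within each number. The difference was 0.44 (SE 0.172, adjusted p = 0.0442), which was not called. Without siCtrl replicate 1 (0.60) or siCtrl OHT replicate 2 (0.56) or 3 (0.54) it was. In siRAD21 cells it was 0.56 (SE 0.210, adjusted p = 0.0525) at 24 h and 0.28 (adjusted p = 0.265) at 48 h. The difference at 24 h was called under 7 alternatives, at 0.56 with a filter at a mean of 5 eRPKM, with only the groups compared and with the replicate block, as given or crossed, at 0.60 with centring and with voom, and at 0.66 with quantile normalization.

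TXNIP and ARRDC4, the 2 arrestin-like genes best known as targets of the MLX and MLXIP pair, both rose after siRAD21 at 48 h, where neither gene of the pair was called. TXNIP was 5.73, 8.91 and 8.85 eRPKM in siCtrl and 19.9, 24.0 and 30.1 in siCtrl OHT libraries at 48 h. In siRAD21 libraries it was 26.7 and 31.4, and in siRAD21 OHT libraries 53.1 and 57.0. It rose with OHT by 1.60 (SE 0.162, adjusted p = 1.84e-06) in siCtrl cells and after siRAD21 by 1.85 (SE 0.181, adjusted p = 1.02e-06). Neither treated group overlapped with siCtrl, while the siCtrl OHT and siRAD21 libraries overlapped with each other. ARRDC4 was 1.82, 2.53 and 2.64 eRPKM in siCtrl and 7.40 and 8.01 in siRAD21 libraries at 48 h and rose by 1.55 (SE 0.158, adjusted p = 1.54e-06). With OHT in siCtrl cells its difference was 0.25 (adjusted p = 0.148).

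Of the 3 relatives of the members, MYCL (chr1:40361100-40367928, minus strand) was high enough to test. It was 5.11 and 5.37 eRPKM in siCtrl and 2.77 and 2.83 in siCtrl OHT cells at 24 h, and at 48 h it was 6.52 to 8.18 in siCtrl and 3.65 to 4.34 in siCtrl OHT cells, with no overlap at either time. MYCL fell with OHT in siCtrl cells by -0.80 (adjusted p = 0.000127) at 24 h and -0.76 (adjusted p = 7.31e-06) at 48 h, and after siRAD21 by -1.15 (adjusted p = 3.06e-07) at 48 h. MYCN, with a mean of 0.898 eRPKM over the libraries, was highest in siCtrl at 48 h, at 1.90 to 2.96, and at most 0.926 in the other groups at that time. MLXIPL, the relative of MLXIP in liver and fat, was at 0.519 to 1.05. Neither was tested.

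Summed over the members whose proteins pair with MAX, levels give the makeup of this RNA pool, as a description of RNA and not of protein pairs. The relatives MYCL and MYCN were not in the sum. Mean MYCL was 7.14 eRPKM in siCtrl and 2.24 in siRAD21 OHT at 48 h, so shares and ratios hold for the summed members only. The MYC part may include reads of the fusion. MYC was at 16.1 to 32.7% of the limit set by duplicate removal and MXD1 at 0.676 to 1.62%, so the limit does not weigh on all parts alike. MYC made up 36.8 to 38.4% of the summed eRPKM of MYC, MXD1, MXD3, MXD4, MXI1, MNT and MGA in siCtrl libraries at both times. Its share was 30.3% in siRAD21 libraries at 24 h and 31.8 to 32.8% at 48 h, below every siCtrl library. In siRAD21 OHT libraries the share was 22.3 to 24.2% over both times, the lowest of all. In siCtrl OHT libraries it was 31.5 to 31.8% at 24 h, and at 48 h it was 33.5 to 38.1%, which overlapped with siCtrl. The 4 MXD genes together made up 35.8 to 37.6% in siCtrl and 43.5 to 49.2% in all libraries with siRAD21. In siCtrl OHT libraries they made up 37.01 to 37.8% at 24 h and 29.3 to 33.3% at 48 h, where the share was lowest of all groups. The sum itself was largest in siRAD21 at 48 h, at 175 to 177 eRPKM, where it was 6.81 to 6.85 times the level of MAX. In siCtrl at 48 h that ratio was 5.15 to 5.45, and with OHT it was 3.47 to 3.72.

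**Figure D2:**
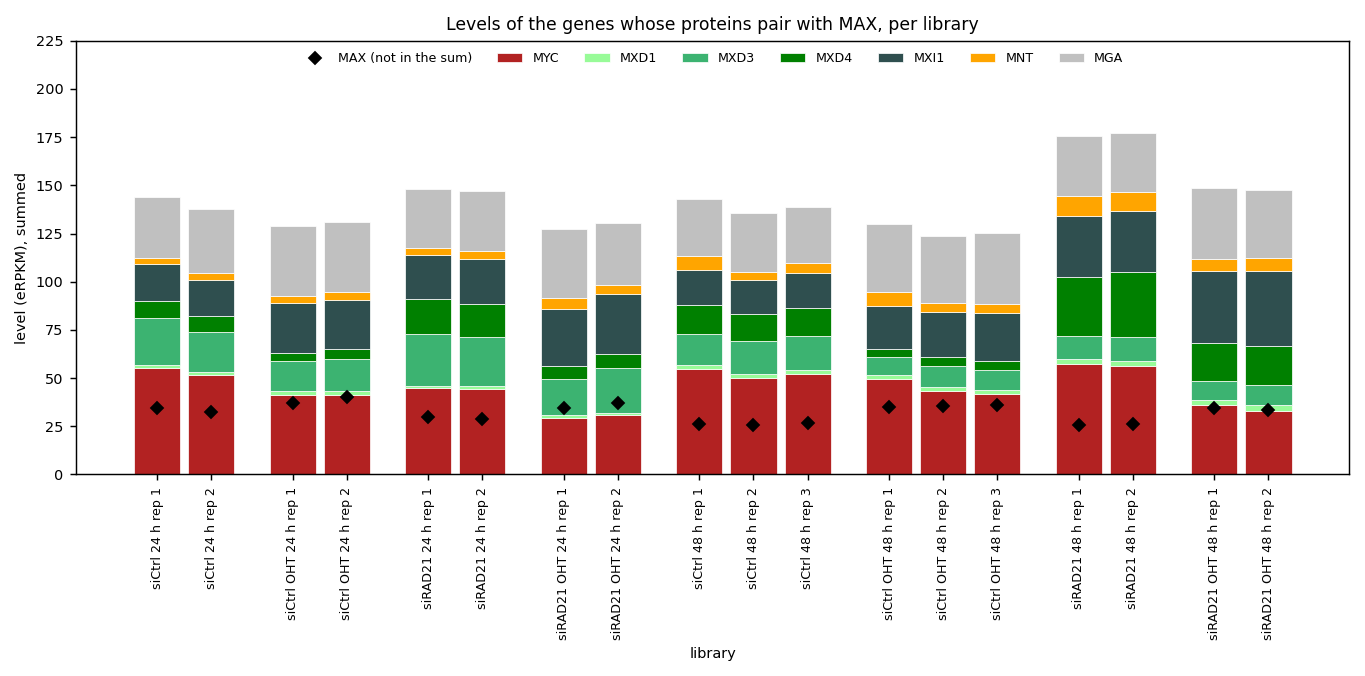
Levels (eRPKM, from 0) of the 7 members whose proteins pair with MAX, stacked for each of the 18 libraries, with the level of MAX itself as a black diamond. MYCL and MYCN are not in the bars. The bars are tallest in siRAD21 at 48 h, at 175 and 177 eRPKM, and MYC (red, at the bottom) is smallest under siRAD21 OHT.

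Genes around the network were taken as lists written by hand. Of 22 established MYC targets, all tested, 5 rose and 0 fell with OHT in siCtrl cells at 48 h, and all 22 log2 fold changes were positive, with a median of 0.32 against -0.01 for all genes. The count of 5 is read against the 17.9% of all genes called. In siRAD21 cells 11 rose with OHT at 48 h, where 28.6% of all genes were called, with a median of 0.50 against -0.02. After siRAD21 alone 3 fell and 1 rose at 48 h, where 23.7% of all genes were called, and the median was -0.25 against -0.01. NOP16, a nucleolar protein, rose with OHT by 0.91 (adjusted p = 9.57e-08), and NOLC1, a nucleolar chaperone, by 0.77 (adjusted p = 3.28e-09). The other 3 that rose, RRP9 (0.75), CAD (0.62) and MRTO4 (0.56), were named after their values were seen. RCC1, the exchange factor of RAN, fell after siRAD21 by -1.12 (adjusted p = 2.20e-10), and CDC25A, a phosphatase that activates cyclin-dependent kinases, by -0.90 (adjusted p = 1.08e-09). EIF4E (-0.60), which also fell, and CCND2 (0.60), the 1 that rose, were likewise named after their values were seen. These targets were chosen with results of these libraries known, so their direction is not independent evidence.

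Counts in the lists that follow are read against the 17.9% of all genes called with OHT in siCtrl cells and the 23.7% called after siRAD21 at 48 h, and nothing particular to these lists was tested. Of 16 coactivators of MYC, 15 were tested. At 48 h 2 rose with OHT in siCtrl cells, the acetyltransferase KAT2A (0.63, adjusted p = 1.68e-06) and the ATPase RUVBL1 (0.59, adjusted p = 3.77e-07), and none fell. After siRAD21 at 48 h 1 fell, ACTL6A, a subunit shared by several remodellers (-0.52, adjusted p = 2.17e-06). Among 14 corepressors used by MXD proteins and MNT or acting on MYC, none was called with OHT in siCtrl cells at 48 h, and after siRAD21 the histone-binding protein RBBP4 fell (-0.59, adjusted p = 1.70e-07), with a median of -0.21 for the list. Of 9 further subunits of the MGA complex, PCGF6 fell after siRAD21 at 48 h (-0.62, adjusted p = 1.03e-05) and none was called with OHT in siCtrl cells.

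Of 16 genes that act on the stability of MYC protein, 1 rose and 1 fell with OHT in siCtrl cells at 48 h, and 2 rose and 2 fell after siRAD21, beside 17.9% and 23.7% of all genes called. SKP2, an F-box protein that marks MYC for turnover and takes part in its activity, fell after siRAD21 by -1.79 (adjusted p = 7.81e-12), from a mean of 55.1 to 15.6 eRPKM. FBXW7, the F-box protein that recognises phosphorylated MYC, rose after siRAD21 by 0.75 (adjusted p = 2.73e-09). USP36, a deubiquitinase of MYC in the nucleolus, rose with OHT by 0.92 (adjusted p = 2.23e-07). FBXO32, a further F-box protein, fell with OHT by -1.15 (adjusted p = 3.24e-06) and rose after siRAD21 by 0.86 (adjusted p = 0.000104). The second that fell after siRAD21, CIP2A (listed as KIAA1524, -0.59), was named after its value was seen.

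Around the MYC gene (chr8:128747680-128755197, GRCh37, plus strand), 4 of 6 listed neighbours were tested. PVT1, a long noncoding RNA that starts downstream of MYC, was 22.0, 20.7 and 21.9 eRPKM in siCtrl and 34.0 and 29.6 in siRAD21 libraries at 48 h. It rose by 0.55 (adjusted p = 4.0e-06), where 23.7% of all genes were called, while MYC gave 0.12 there. With OHT in siRAD21 cells at 48 h 28.6% of all genes were called. There FAM84B fell by -0.75 (adjusted p = 1.17e-06) and GSDMC by -0.51 (adjusted p = 0.0121), while PVT1 gave 0.02 (adjusted p = 0.811). GSDMC was low, with means of 1.64 eRPKM in siRAD21 and 1.00 in siRAD21 OHT, and its fall was just past the fold threshold. FAM49B was at 27.6 to 33.9 eRPKM in the group means and was called in neither of these 2 comparisons. POU5F1B was at most 0.718 eRPKM in the group means and was not tested, and CCAT1 was not matched to a row.

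The genes whose log2 levels followed each member most closely over the 18 libraries are given as a description, since all genes share the same 8 groups. Out of 14992 other genes, those most like MYC were HTR1D (Pearson r = 0.949), EMP1 (0.942) and BNC2 (0.942). The closest to MAX was DDX51 (0.980), to MXD1 NFE2L2 (0.916), to MXD3 PMM1 (0.975), to MXD4 VAT1L (0.979) and to MXI1 DTWD1 (0.980). For MNT it was PER1 (0.940), for MGA GCFC2 (0.943), for MLX MYDGF (0.902) and for MLXIP POLR1A (0.920). Among the members themselves MAX and MGA were the most alike (0.812), and MXD1 and MXD3 ran most opposite (-0.869).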

How the data were processed

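Total RNA of 18 libraries was depleted of ribosomal RNA and sequenced without strand information in reads of 50 bases. The authors aligned the reads to hg19 with TopHat2 2.0.8, removed duplicates, counted exonic reads with featureCounts 1.4.5 and deposited RPKM values over exons (eRPKM) for 23399 genes, scaled to the depth of each library, so a change in total RNA per cell is not seen. The methods state 2 biological replicates, while 2 groups have 3 libraries, so p-values measure the spread between libraries. Groups came from the labels.

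Reads and depths (9647501 to 12678599) were recovered from the values as whole numbers for 22033 genes, 99.91 to 99.92% of each depth. Their number limits the precision of low genes. limma 3.58.1 in R 4.3.3 used log2(eRPKM + 0.5), 1 mean per group and a variance trend, over 14993 genes with a mean of at least 1 eRPKM, and p-values were adjusted by Benjamini-Hochberg within each comparison. Thresholds were 0.05 and a log2 fold change of 0.5. The procedure was tested on simulated data. Tables were made with pandas 2.3.3 and numpy 2.4.6 under Python 3.11.15, and plots with matplotlib 3.10.9. Gene positions are from GENCODE on GRCh37, and promoters from RefSeq.

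Deviations from the group means of same-numbered libraries correlated at 0.258, 0.130 and 0.157 between siCtrl and siCtrl OHT at 48 h. Between other groups these correlations ran from -0.169 to 0.168. Differently numbered libraries were not compared, so the values do not establish a pairing. Alternatives were other pseudocounts, filters and scalings, a fit of only the groups compared, a replicate block, voom, no fold threshold, averaging of the siRAD21 OHT 48 h libraries and leaving out each library. Undoing duplicate removal, leaving out both first replicates of siCtrl and siCtrl OHT at 48 h, and crossed numbers were chosen after seeing the data. The members and lists were chosen with earlier results of these data known. Genes named were the members, RAD21, ESR1, the 3 relatives, the genes most like each member, all genes of lists of up to 6 and up to 4 called genes with the largest changes at 48 h of longer lists.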

Additional observations from a re-analysis of the deposited data

Results flagged for a closer look

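The effect of OHT differed between siRAD21 and siCtrl cells at 48 h, by the interaction term in limma, for 3 members. The difference of the log2 fold changes was -0.499938 for MYC (adjusted p = 0.00191), which is just inside the fold threshold, 0.43 for MXD3 (adjusted p = 0.0368) and 0.91 for MXD4 (adjusted p = 5.84e-05).

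The effect of siRAD21 differed between 48 and 24 h, by the same kind of test, for 4 members. The later effect minus the earlier one was 0.38 for MYC (adjusted p = 0.0106), 0.49 for MXD1 (adjusted p = 0.0362), -0.67 for MXD3 (adjusted p = 0.00314) and 0.54 for MXI1 (adjusted p = 5.90e-05). The effect of OHT in siCtrl cells differed between the times for MXD4, by -0.77 (adjusted p = 0.00138). Members flagged in this section were counted at an adjusted p below 0.05, without the fold threshold. The shares of all genes given earlier use both thresholds, so they cannot be set beside these counts. Whether such differences are more frequent among the members than among other genes was not tested.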

How the results depend on the processing

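Of 2735 values of the members under the alternatives, 2674 kept their side of the threshold, 15 lost a call and 46 gained one. No called value changed sign in 501 alternatives. Without a fold threshold the members called were 5 and 6 with siRAD21 and OHT alone at 24 h, 5 in siRAD21 OHT against siRAD21 and 5 against siCtrl OHT at 24 h, 7 with OHT, 8, 4 and 7 in the remaining pairs with siRAD21 OHT at 48 h, 3 for the interaction at 48 h, 4 for siCtrl over time and 4 for the siRAD21 effect over time. These counts cannot be set beside the shares of all genes given earlier, which use both thresholds. Whether members passed more often than other genes without a fold threshold was not tested. In siRAD21 OHT against siCtrl OHT at 24 h, 2 members were called with a pseudocount of 0.1, quantile normalization, voom or duplicate removal undone, and 1 to 3 when a library was left out. For OHT in siCtrl cells at 24 h, leaving out a library gave 1 to 2. For the interaction at 48 h, 2 were called with a pseudocount of 0.1, centring, quantile normalization, duplicate removal undone or both first replicates left out, 3 with voom, and 1 to 3 when a library was left out. For siCtrl over time 1 was called without both first replicates, and 1 to 2 when a library was left out. For the siRAD21 effect over time 4 were called with quantile normalization, voom or both first replicates left out, and 2 to 4 when a library was left out. MXD1, with as few as 79 reads in a library, is limited by depth.

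With a replicate block 1 call of a member changed: MLXIP in siRAD21 OHT against siRAD21 at 24 h was called (0.56, adjusted p = 0.0200 in limma), as it was under 6 other alternatives. It changed no other call of a member, and for MLXIP with OHT in siCtrl cells at 48 h the adjusted p in limma with the block was 0.0162. For the interaction at 24 h, 0 genes were called in all, against 4 with the block, 5 with all genes above 0, 12 with quantile normalization and 19 with voom. With the numbers of siCtrl at 24 h crossed, 10 were called, and for OHT in siCtrl cells at 24 h 1328, against 1317 with the numbers as given and 1316 without a block.

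A filter at a mean of 5 eRPKM left 10906 genes. The genes called fell at 24 h from 1264 to 740 for siRAD21, from 1316 to 742 for OHT, and for siRAD21 OHT from 1785 to 1024 against siRAD21, from 970 to 610 against siCtrl OHT and from 1969 to 1186 against siCtrl. At 48 h they fell in the same order from 3559 to 2289, 2684 to 1653, 4281 to 2794, 2431 to 1507 and 4203 to 2769, for the interaction from 1094 to 720 and for siCtrl over time from 1865 to 1152. The OHT effect over time called 266 genes, 96 with only the groups compared, 130 without siCtrl 24 h replicate 1 and 114 without siCtrl OHT 24 h replicate 1. Centring turned the calls for siCtrl over time from 829 higher and 1036 lower to 1139 and 658. Quantile normalization turned those for siRAD21 at 24 h from 874 and 390 to 680 and 546, and for siRAD21 OHT against siRAD21 at 24 h from 643 and 1142 to 814 and 860.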
